A study of Arabidopsis thaliana with 8 samples.

Results

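NAC proteins are plant transcription factors that share a DNA-binding domain at the N-terminal end. Some are induced by stress and ageing, some set organ boundaries, roots and vessels, and some are held at a membrane by a hydrophobic C-terminal tail and reach the nucleus once that tail is cut off. In leaves the family is best known for its part in drought, pathogen and senescence responses.

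The genes described here are 46 Arabidopsis NAC genes chosen by identifier. They leave out NAP, ORE1, RD26, NAC062, NAC089 and NAC103. Of the 46, 9 had a row among the 2958 genes of the authors' deposited table. Members and classes were chosen with earlier results of these data known, so their shares of called genes are no test. The table comes from RNA sequencing of Arabidopsis thaliana Col-0 protoplasts, leaf cells whose walls were digested, from plants grown for 4 weeks, that were transfected with plasmid DNA, with 4 libraries labelled div1 and 4 labelled ev. The design text names the TARGET assay, which reads the genes that respond to a transcription factor brought into cells, here the MYB-type factor DIV1 in leaf. The labels do not expand ev, and the sources used here name no promoter, vector or induction step. All cells, in both groups, were protoplasts kept overnight after polyethylene glycol treatment, so the comparison lies within wall-digested, transfected leaf cells. The table gives, for each gene the authors called at an adjusted p under 0.05, a mean normalized count over all libraries and a log2 fold change, the log2 ratio of div1 over ev, with its standard error. It holds no value per library, so whether the libraries of the 2 groups overlap cannot be read, and the depth of each library is unknown. DIV1 itself stood at a log2 ratio of 7.61 (standard error 0.88) per the authors' deposited table, and this sets the direction, with positive values read as higher in div1. None of 12 markers of mesophyll, guard cells, vascular tissue and epidermis had a row, and since the table lists called genes only, the labelled tissue could not be checked against levels.

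Of the 46 NAC genes, 6 rose, 3 fell and 37 were not listed per the authors' deposited table. A gene without a row may have been tested and not called, or not tested. The 9 listed genes make 19.6% of the members, against 16.4% of all 18010 genes behind the authors' adjustment (9.14% higher and 7.28% lower), a share near the background. Members that were not tested count in the first share and cannot in the second. Their median absolute log2 fold change was 0.67, against 0.78 over all called genes. Of the 9, 4 rose by 2-fold or more and 0 fell by as much. That is 44.4% of the listed members, beside 34.6% of all called genes with a change of such a size. Among all tested genes 5.67% were called with such a size (3.47% higher and 2.2% lower). The protoplasts were measured in bulk, where fewer cells of a type and less RNA per cell cannot be told apart. No label says that libraries came from separate plants or transfections, so the authors' p-values measure the spread between these libraries, which may be technical.

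**Figure D1:**
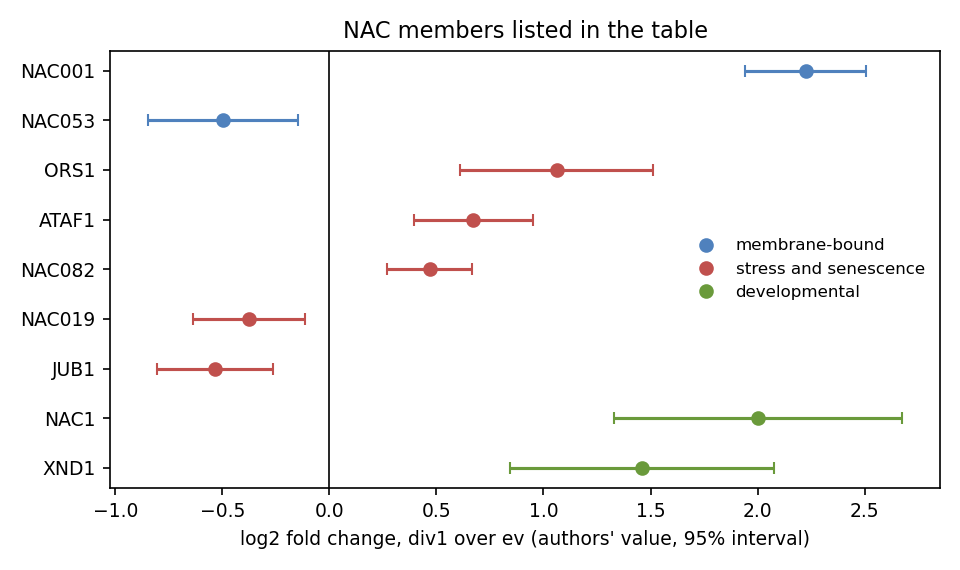
Log2 fold change of the 9 listed NAC genes, div1 over ev, as points with 95% intervals from the authors' standard errors, coloured by class. NAC001 and NAC1 lie farthest to the right, at 2.22 and 2.00, and NAC053, JUB1 and NAC019 lie left of 0.

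In order of fold change the listed genes ran NAC001, NAC1, XND1, ORS1, ATAF1, NAC082, NAC019, NAC053 and JUB1. The 95% intervals of neighbours in this order overlapped, with the exception of NAC082 (0.27 to 0.67) and NAC019 (-0.64 to -0.11), which lie on opposite sides of 0. The 6 higher genes all had an adjusted p under 0.01 per the authors' deposited table, whereas of the 3 lower genes JUB1 alone did.

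By textbook role the members were divided into 17 stress and senescence genes, 11 genes of membrane-bound factors, 13 developmental genes and 5 genes given no class. Among stress genes 3 rose and 2 fell, or 29.4% listed, among membrane-bound genes 1 rose and 1 fell, or 18.2%, and among developmental genes 2 rose and 0 fell, or 15.4%. Of the 5 genes with no class, NAC003, NAC028, NAC041, NAC061 and NAC084, 0 were listed. Among all tested genes 16.4% were called, 9.14% higher and 7.28% lower. The class shares rest on 5, 2 and 2 calls, and the difference between classes was not tested.

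**Figure D2:**
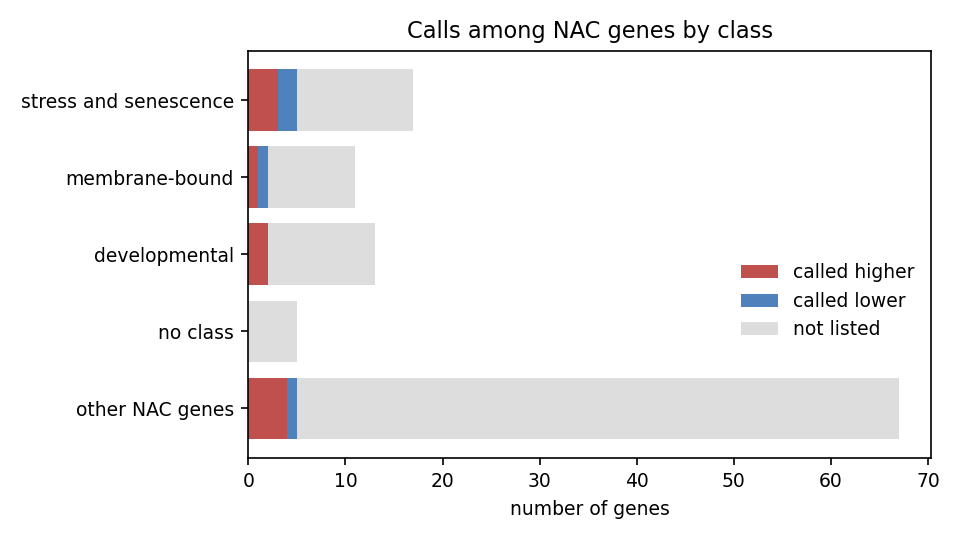
Number of NAC genes called higher, called lower and not listed, by class, with the 67 other NAC genes of the annotation at the bottom. Unlisted genes make up most of each bar, and the developmental bar has 0 lower calls.

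The membrane-bound class held the member with the largest fold change and the smallest adjusted p, NAC001, and a member that fell, NAC053. NAC001 (AT1G01010, chromosome 1, 3631 to 5899, plus strand, TAIR10.1, 6 exons) encodes a member of the membrane-tethered NAC group whose function is little described. Its log2 fold change was 2.22 (standard error 0.14, adjusted p = 4.76e-51), with 1217 normalized counts averaged over the libraries, per the authors' deposited table, which the processing notes tie to DESeq2. Estimated from that mean and fold, NAC001 stood at 429 normalized counts in ev and 2005 in div1, a 4.67-fold rise with an interval of 3.85 to 5.68. Its adjusted p ranked 9 among all called genes, and its fold change 168 among the 1646 higher genes. Of the other 597 higher genes with a mean within 2-fold of that of NAC001, 27 had a larger fold change.

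The promoter of NAC001 is shown because this gene responded most. It spans 250 bases before to 50 bases after the annotated start at chr1:3381-3680 on the plus strand of TAIR10.1, 5′ to 3′, and none of 4 motifs searched (TATCCA and the others given with the promoter counts) was found in it on either strand.
NAC001 promoter: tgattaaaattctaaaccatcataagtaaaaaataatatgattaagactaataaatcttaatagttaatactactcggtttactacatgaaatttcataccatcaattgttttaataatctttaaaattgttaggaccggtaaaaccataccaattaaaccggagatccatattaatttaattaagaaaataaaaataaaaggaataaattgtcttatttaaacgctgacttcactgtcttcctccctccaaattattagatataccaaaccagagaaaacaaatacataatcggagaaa

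**Figure D3:**
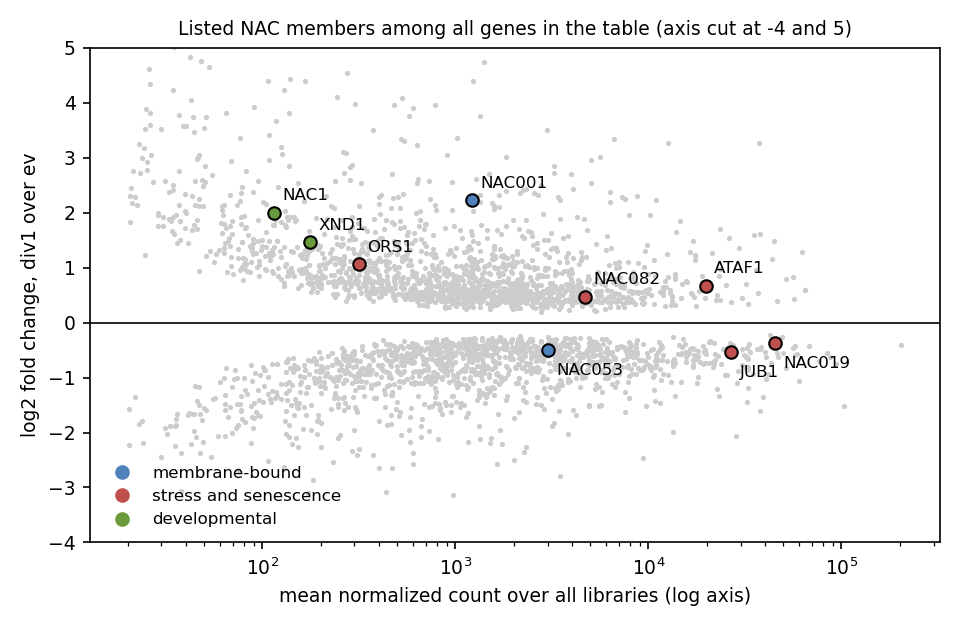
Log2 fold change against mean normalized count (log axis) for the genes of the table (grey) and the 9 listed NAC genes (coloured by class); 29 genes beyond the range of -4 to 5 are not drawn. NAC001 lies above the other coloured points, and the members with the highest means, NAC019, JUB1 and ATAF1, lie at -0.38, -0.53 and 0.67.

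NAC053 (AT3G10500, chromosome 3, 3271217 to 3274176, plus strand, TAIR10.1, 6 exons) encodes a factor that, with its close relative NAC078, switches on proteasome genes when the proteasome is impaired. It fell, with a log2 ratio of -0.50 (standard error 0.18, adjusted p = 0.0372) and 3026 normalized counts averaged over the libraries, per the authors' deposited table. The estimated group means were 3541 in ev and 2511 in div1, and the call is lost at an adjusted p under 0.01. NAC078, which shares 72.9% of 542 aligned residues with NAC053, had no row. In a list of 8 proteasome genes set beside this pair, 7 rose, 0 fell and 1, RPN5B, was not listed, against the background of 9.14% higher. This list, like the other lists of partners and targets, was chosen with earlier results of these data known, so its count is no test. The log2 fold changes of the 7 listed genes ran from 0.41 for RPT5A to 0.54 for PBA1 per the authors' deposited table. RPN12A among them overlaps another annotated gene.

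The remaining 9 membrane-bound genes were not listed. They are NAC013 and NAC017, which relay mitochondrial stress to the nucleus, NAC016, which promotes leaf ageing, TIP, whose protein binds a viral coat protein, NTL8, which acts in germination under salt, NAC060, which acts in abscisic acid responses of seedlings, NTM1, a regulator of cell division, NAC069, and NAC078. Of 9 genes known as targets of NAC013 and NAC017 in mitochondrial stress, 2 rose, 1 fell and 6, the marker AOX1A among them, were not listed, beside 9.14% higher and 7.28% lower among all tested genes. The small heat shock protein HSP23.5 and the glucosyltransferase UGT74E2 stood at 1.05 (standard error 0.26) and 0.43 (standard error 0.16), and the outer membrane ATPase OM66 at -0.96 (standard error 0.21), by the log2 ratios of the authors' deposited table. Among 3 proteins of the RCD1 family, known partners of these factors, SRO5 alone was listed, beside 16.4% of all tested genes. It stood at -0.28 (log2 ratio with a standard error of 0.09, authors' deposited table). SRO5 overlaps another annotated gene.

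**Figure D4:**
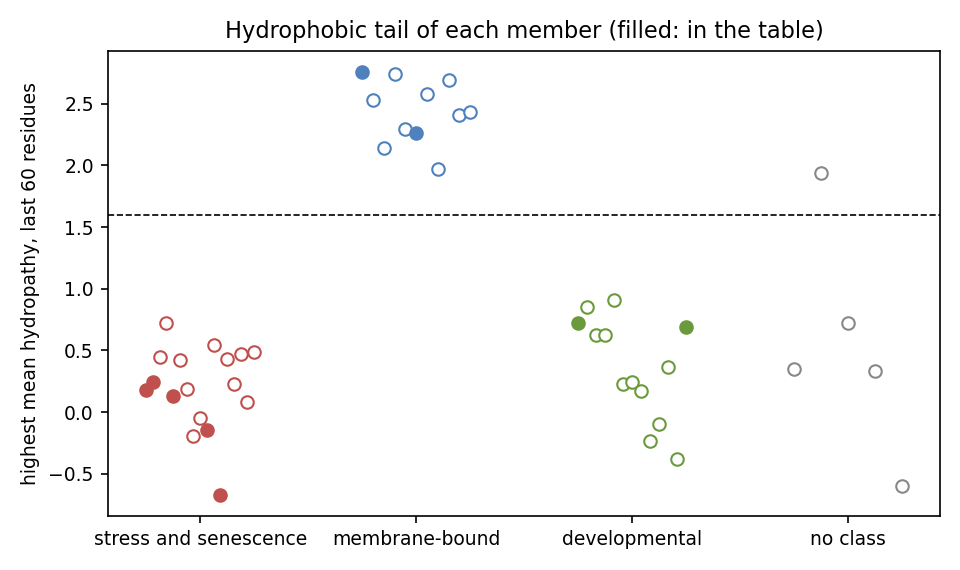
Highest mean Kyte-Doolittle hydropathy over any 19 residues within the last 60 residues of each member's predicted protein, by class, with filled points for listed genes and a dashed line at 1.6. The 11 membrane-bound proteins lie between 1.97 and 2.76, above the line, and in the other classes NAC028 alone does, at 1.94.

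The predicted proteins were scored for the tail after which the membrane-bound class is named, so the score is no independent check of that class. A hydrophobic stretch in the last 60 residues, scored by the Kyte-Doolittle scale over 19 residues with a threshold of 1.6, was found in 11 of 11 membrane-bound members. It was found in 0 of 17 stress and 0 of 13 developmental members, whose highest scores were 0.73 and 0.91. NAC028, given no class, scored 1.94. The called members with such a tail, NAC001 at 2.76 and NAC053 at 2.26, moved in opposite directions.

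Among the stress and senescence genes, ATAF1, NAC082 and ORS1 rose. ATAF1 (AT1G01720, chromosome 1, 267993 to 269819, plus strand, TAIR10.1), which promotes senescence and abscisic acid synthesis, had a log2 ratio of 0.67 (standard error 0.14, adjusted p = 4.97e-05) and 19861 normalized counts averaged over the libraries per the authors' deposited table. Its estimated means were 15319 in ev and 24402 in div1. ATAF1 shares 344 bases with a long noncoding gene and 28 with a coding gene, each on the opposite strand, and neither neighbour was listed. The other members of its clade, ATAF2, NAC032 and NAC102, had no row, although NAC032 matches ATAF1 at 72.2% of 245 aligned residues.

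NAC082 (AT5G09330, chromosome 5, 2892338 to 2895480, minus strand, TAIR10.1), which mediates the response to ribosome defects, rose by a log2 ratio of 0.47 (standard error 0.10, adjusted p = 8.43e-05) at 4715 normalized counts averaged over the libraries per the authors' deposited table. This was the smallest standard error among the listed members, and the estimated means were 3956 in ev and 5474 in div1. ORS1 (AT3G29035, chromosome 3, 11033665 to 11035308, plus strand, TAIR10.1), a promoter of leaf ageing, rose by 1.06 (standard error 0.23, adjusted p = 8.57e-05) on the log2 scale, with 316 normalized counts averaged over the libraries, per the authors' deposited table. The estimated means of ORS1 were 205 in ev and 427 in div1. Its closest relative by protein alignment was ORE1 (AT5G39610), at 75.9% of 274 aligned residues, which also rose, with a log2 ratio of 0.87 (standard error 0.17) per the authors' deposited table.

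The stress genes that fell were JUB1 and NAC019. JUB1 (AT2G43000, chromosome 2, 17880457 to 17882636, minus strand, TAIR10.1), which is induced by hydrogen peroxide and delays senescence, had a log2 ratio of -0.53 (standard error 0.14, adjusted p = 0.00141) and 26812 normalized counts averaged over the libraries per the authors' deposited table. Its estimated means were 31716 in ev and 21908 in div1, a ratio of 0.691 with an interval of 0.573 to 0.833. JUB1 shares 107 bases with a coding gene on the opposite strand that was not listed. DREB2A, a drought and heat factor known as a direct target of JUB1, rose by 0.73 (log2 ratio with a standard error of 0.15, authors' deposited table), and the JUB1 targets GA3OX1 and DWF4 were not listed. DREB2A overlaps another annotated gene. It was the 1 called gene of 9 listed as targets of ATAF1, JUB1 and VNI2, beside 16.4% of all tested genes.

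NAC019 (AT1G52890, chromosome 1, 19696923 to 19698482, minus strand, TAIR10.1) encodes a factor of abscisic acid and jasmonate responses that, with NAC055 and RD26, is known to repress salicylic acid synthesis. It had a log2 ratio of -0.38 (standard error 0.13, adjusted p = 0.0347) and 45214 normalized counts averaged over the libraries per the authors' deposited table. The estimated means were 51065 in ev and 39362 in div1, the smallest change among the listed members, and the call is lost at an adjusted p under 0.01. NAC055, which matches NAC019 at 76.1% of 309 aligned residues, and RD26 had no row. Of 7 genes known to respond to this group, 2 rose, 2 fell and 3 were not listed, beside the same background of 9.14% higher and 7.28% lower. The salicylic acid synthesis gene ICS1 and the methyl salicylate synthase gene BSMT1 stood at -1.59 (standard error 0.37) and -2.87 (standard error 0.96), and the glucosyltransferase gene UGT74F2 and the lipoxygenase gene LOX2 at 1.07 (standard error 0.20) and 0.85 (standard error 0.29), by the log2 ratios of the authors' deposited table. BSMT1 and UGT74F2 overlap other annotated genes.

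The 12 stress genes without a row were NAC055, ATAF2, NAC032, NAC102, NAC036, NAC044, NAC085, NAC046, NAC047, NAC087, NAC090 and NAC096. NAC044 and NAC085 act in the DNA damage response, NAC046 and NAC087 in cell death of the root cap, and NAC096 in dehydration responses.

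**Figure D5:**
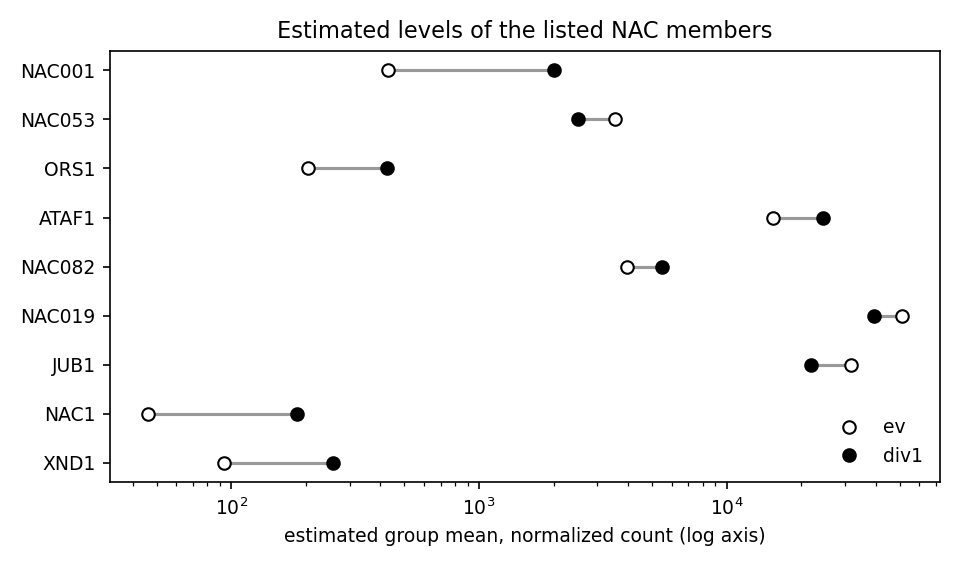
Estimated mean normalized count of each listed NAC gene in ev (open points) and div1 (filled points), on a log axis, computed from the authors' overall mean and fold change with groups of equal size. The 6 higher genes have the filled point to the right, and NAC053, NAC019 and JUB1 have it to the left.

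Among the developmental genes, NAC1 and XND1 rose, and both had few reads. NAC1 (AT1G56010, chromosome 1, 20946571 to 20949281, minus strand, TAIR10.1, 3 exons) relays auxin signals to lateral root formation. Its log2 fold change was 2.00 (standard error 0.34, adjusted p = 2.14e-07) and its mean normalized count 115 per the authors' deposited table. Estimated means were 46.1 in ev and 185 in div1, a 4.01-fold rise with an interval of 2.51 to 6.39. The standard error of NAC1 was the largest among the listed members. NAC1 shares 809 bases with a long noncoding gene and 148 with a coding gene on the opposite strand, neither of them listed, and the library kit named in the labels does not by itself keep strand, so reads from the shared bases may belong to either gene.

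XND1 (AT5G64530, chromosome 5, 25794957 to 25797031, plus strand, TAIR10.1, 3 exons) restrains the differentiation of water-conducting vessels. It rose by 1.46 (standard error 0.31, adjusted p = 7.40e-05) on the log2 scale, with 176 normalized counts averaged over the libraries, per the authors' deposited table. The estimated means were 93.8 in ev and 258 in div1. Its best alignment within the family was to NAC025, at 44.6% of 175 aligned residues, which fell. NAC025 had a log2 ratio of -3.06 (standard error 0.72) at a low mean of 38 normalized counts over the libraries, per the authors' deposited table.

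NAC1 belongs to the group of NAC genes whose transcripts are cut under the guidance of the microRNA miR164, and the sites are shown because 5 members hold one while NAC1 alone of these was listed. The mature miR164a is printed 5′ to 3′ with its seed, bases 2 to 8, in capitals, and the sites are printed 5′ to 3′ on the coding strand with capitals at bases that differ from the full complement of miR164a, all read from TAIR10.1. Each site lies in exon 3 of 3.
miR164a: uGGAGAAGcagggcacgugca
NAC1 site: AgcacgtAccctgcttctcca
NAC080 site: tTTacgtgccctgcttctcca
NAC100 site: tCTacgtgccctgcttctcca
CUC1 site: AgcacgtgTcctgTttctcca
CUC2 site: AgcacgtgTcctgTttctcca
ORE1 site: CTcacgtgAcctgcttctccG

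A search of the coding sequences of 113 NAC genes with at most 4 mismatches found 7 such sites. NAC1 (chr1:20947142-20947162), NAC080 (chr5:2436958-2436978) and NAC100 (chr5:24701687-24701707) had 2 mismatches, and the organ boundary genes CUC1 (chr3:5111137-5111157) and CUC2 (chr5:21902301-21902321) had 3. ORE1, outside the members, had 4 (chr5:15858797-15858817). The 7th site, with 3 mismatches, is in AT3G12977, the closest relative of NAC1 at 74.3% of 276 aligned residues, which was not listed. Of these 7 genes NAC1 and ORE1 rose and the other 5 had no row, beside 16.4% of all tested genes called and 9.14% called higher. None of the 3 miR164 precursor genes had a row, and the level of the mature microRNA was not measured by poly(A) sequencing.

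The remaining 9 developmental genes without a row, CUC1 and CUC2 aside, were VNI2, NAC050, NAC052, LOV1, NAC080, NAC100, NAC071, NAC074 and NAC075. VNI2 acts in vessel formation and leaf ageing, and LOV1 and NAC075 in flowering time. NAC050 and NAC052 are known to work with the histone demethylase JMJ14, whose gene rose by 0.71 (log2 ratio with a standard error of 0.16, authors' deposited table) and overlaps another annotated gene. JMJ14 was the 1 called gene of 6 partners and targets of developmental NACs and NTL8, beside 16.4% of all tested genes.

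For each of the 9 listed members the family gene with the best protein alignment was taken, and 2 of these 9 relatives had a row, beside 16.4% of all tested genes, ORE1 in the same direction as ORS1 and NAC025 in the opposite direction to XND1. Identities ran from 38.3% for NAC001 with NAC069 to 76.1% for NAC019 with NAC055, so not all of these are close pairs. The pairs NAC053 and NAC078, ATAF1 and NAC032, and NAC019 and NAC055 each had 1 listed and 1 unlisted gene, at identities between 72.2% and 76.1%. A row for 1 gene of a pair does not show that the pair differed, which the table gives no means to test.

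In the promoters, motif matches were scattered. TATCCA, bound by MYB factors of the DIVARICATA kind, was found on either strand in 12 of 46 member promoters, or 26.1%, and in 16.1% of 27443 promoters of coding genes of the same length. Among the 9 listed members, NAC1 and NAC019 held it, which moved in opposite directions. The NAC019 match lies after the annotated start and just behind an ATG in the printed sequence. It may therefore be coding rather than promoter sequence, which was not checked. GATAAG was found in 4 member promoters, or 8.7%, none of them of a listed member, and in 14.6% of all. TACGTG was found in 8, or 17.4%, against 7.93% of all, and CATGTG in 5, or 10.9%, against 12.9% of all, with NAC053 and XND1 as the listed carriers. In XND1 the CATGTG matches on the 2 strands overlap. The TACGTG match of NAC053, 71 bases before its start, lies within the annotated NAC052 gene, which ends 14 bases from NAC053. The promoters of NAC1 (chr1:20949232-20949531, minus strand) and NAC019 (chr1:19698433-19698732, minus strand) are shown, each 5′ to 3′ on the strand of its gene, because they carry TATCCA or its reverse complement TGGATA, printed in capitals, 115 bases before the start in NAC1 and within the first 50 bases after the start in NAC019.
NAC1 promoter: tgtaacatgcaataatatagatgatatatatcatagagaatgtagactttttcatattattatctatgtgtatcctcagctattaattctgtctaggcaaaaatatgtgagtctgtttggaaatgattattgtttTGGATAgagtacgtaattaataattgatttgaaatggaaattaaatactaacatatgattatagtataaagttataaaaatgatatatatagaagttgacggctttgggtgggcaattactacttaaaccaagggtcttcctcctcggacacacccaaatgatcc
NAC019 promoter: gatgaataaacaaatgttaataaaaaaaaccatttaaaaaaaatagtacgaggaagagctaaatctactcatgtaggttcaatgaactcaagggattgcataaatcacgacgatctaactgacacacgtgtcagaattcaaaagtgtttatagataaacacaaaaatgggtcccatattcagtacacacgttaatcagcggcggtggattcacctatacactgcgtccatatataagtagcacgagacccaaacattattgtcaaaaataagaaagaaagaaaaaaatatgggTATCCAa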

How the data were processed

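Poly(A) RNA of 8 libraries, 4 div1 and 4 ev, was sequenced. Per the submitters' processing notes, fastp 0.21.0, HISAT2, featureCounts 2.0.1, DESeq2 and TAIR10 were used; settings and strand option were not stated in these sources. Per the file headers, the authors' deposited table gives a mean normalized count (a signal averaged over libraries), a log2 fold change, its standard error and test statistic (a score each), and p-values before and after adjustment. No samples were tested here, and the calls are those the authors made at an adjusted p under 0.05.

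The 18010 genes behind the adjustment were recovered as the largest adjusted p times rank over p, a step tested on simulated data. Means per group were computed from the mean over all libraries and the fold change, with groups taken as equal. Intervals at 95% are the log2 fold change with 1.96 standard errors on each side. Depth per library is unknown.

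Coordinates, sequences and the family of 113 NAC genes came from the TAIR10.1 RefSeq annotation and genome. The family was taken by name, leaving out exonucleases named after NAC genes and 4 proteins with a local alignment score under 100 to all members. The longest coding sequence of each gene was translated, and proteins were aligned with BLOSUM62. Members, classes and lists were chosen with earlier results of these data known. Every listed member is named with its fold change and error, unlisted members by name, and context genes where called. The 4 alternatives tried were a stricter adjusted p, a 2-fold minimum, a minimum mean of 100 and leaving out overlapping genes. Python 3.11.15, numpy 2.4.6, pandas 2.3.3, Biopython 1.88 and matplotlib 3.10.9 were used.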

Additional observations from a re-analysis of the deposited data

How the results depend on the processing

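No paired analysis was possible because the table has no values per library, and for the same reason no library could be left out. At an adjusted p under 0.01 the lower calls went from 3 to 1 (stress from 2 to 1, membrane-bound from 1 to 0), with JUB1 remaining, and the 6 higher calls stayed at 6. With a change of 2-fold or more, 4 higher and 0 lower calls were left, stress higher calls going from 3 to 1, stress lower calls from 2 to 0 and membrane-bound lower calls from 1 to 0. A minimum mean of 100 changed no count. Without the 9 members that overlap another annotated gene, 4 higher and 2 lower calls were left, stress higher calls going from 3 to 2, developmental higher calls from 2 to 1 and stress lower calls from 2 to 1. The counts of 0 rest on the authors' DESeq2 calls, and counts at an unadjusted p could not be taken because the table stops at the adjusted threshold. Unknown depth limits what can be said of the 37 unlisted genes.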

Other observations

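Outside the 46 members, 5 of 67 NAC genes of the annotation, or 7.5%, had a row, against 16.4% of all tested genes. Besides ORE1 and NAC025 these were NAP, which promotes leaf senescence, at 0.86 (standard error 0.15), NAC004 at 1.34 (standard error 0.31) and NAM at 1.33 (standard error 0.18), by the log2 ratios of the authors' deposited table. How many of the 67 were tested is not known. NAM and NAC019 are adjacent on chromosome 1, with 6333 bases and no other coding gene between them, and NAM rose while NAC019 fell. NAC053 lies 14 bases from NAC052 on chromosome 3, and NAC052, like its other neighbour NAC050, was not listed.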
